A study of Homo sapiens with 4 samples.

Results

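The 28 genes described here cover cholesterol synthesis from acetyl-CoA, the SREBP system that controls it, and sterol transport. They were chosen by symbol, matched through their Entrez identifiers, and all 28 were found among the 17010 and 16860 genes listed for the vector and siRNA pairs. The data are RNA-seq gene tables of 4 libraries of cells labelled HepG2, a human line from a liver tumour, with 1 library per condition. One pair of libraries came from cells transfected with empty vector or with FLAG-tagged JFK, an older name of the F-box protein gene FBXO42. Cells treated with control siRNA or with ING5 siRNA made up the second pair, ING5 being a subunit of histone acetyltransferase complexes; no genetic change, time or dose is given in the labels. With 1 library per condition no difference has a replicate check and no test was run, so the values describe pairs of libraries.

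Counts used summed to about 7179360 and 7237320 in the vector pair, and to 9030080 and 9196980 in the ING5 and control siRNA libraries. The targeted genes check the labels. ING5 had 144 counts in the control and 81 in the ING5 siRNA library (log2 fold −0.81, counting interval −1.23 to −0.41). FBXO42 had 116 counts in the vector library and 115 in its partner (0.01, −0.37 to 0.40), so the label of overexpression is not borne out at this transcript and "the library labelled JFK" is used throughout. Of 13 hepatocyte markers only CPS1 (22227.07 to 46771 counts) and HNF4A (51 to 91) reached 20 counts in any library, while ALB, APOA2, APOH, TTR and TF were at 0 or not listed in all 4. Of 6 markers of squamous or other carcinomas, KRT17 had 2299 to 27538.94 counts, ALPP 10851 to 26762.45 and KRT7 1749 to 8413.84, while TP63 had 4 to 30 and KRT14 (1 to 11.79) and KRT5 (0 to 1 in the siRNA pair, not listed in the vector pair) stayed under 20. Within the pairs KRT7 went from 8413.84 to 5182.93 counts and from 3162 to 1749. Of 4 endothelial markers CDH5 had 995 and 1132 counts (vector pair) and 224 and 87 counts (siRNA pair) and PECAM1 16 to 42.78, while VWF (1 to 12) and KDR (0 to 0.74, not listed in the siRNA pair) were near 0. Of 4 fibroblast markers COL1A1 had 177 to 320 counts, DCN 91 in each library of the vector pair and 74 and 37 in the siRNA pair, and PDGFRB 10 to 52, while COL1A2 was at 0 to 2 in the siRNA pair and not listed in the vector pair. None of the 4 leukocyte markers reached 20 counts. Most hepatocyte markers were thus under 20 counts or not listed. Apart from CPS1 and HNF4A, the list does not bear out the label HepG2. Which line the cells are was not tested, nor was the part of these markers in the results below.

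Cholesterol is built from acetyl-CoA through mevalonate, the isoprenoid farnesyl diphosphate, squalene and lanosterol, and the liver is a main site of this synthesis. When sterols in the endoplasmic reticulum are low, the escort protein SCAP carries the membrane-bound transcription factors SREBP1 and SREBP2 to the Golgi, where they are cut and released to activate the genes of the pathway. When sterols are high, INSIG proteins hold SCAP back. SREBP2 binds sterol regulatory elements, usually near CCAAT boxes that bind NF-Y and GC boxes that bind Sp1.

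Promoters of 4 members are printed because HMGCS1, EBP and INSIG1 showed the 3 differences farthest from 0 among the measured members, and because SREBF2, the gene of SREBP2 itself, was the only one of the 25 members with a promoter in the RefSeq table (build GRCh38.p14) to hold the element TCACNCCAC. Each runs 5′ to 3′ on the gene's strand from 250 bases before the annotated start to 50 after it. Capitals mark CCAAT or its reverse complement, and in SREBF2 also the sterol regulatory element. The windows are chr5:43313363-43313662 on the minus strand for HMGCS1 (the first of its listed starts), chrX:48521558-48521857 on the plus strand for EBP, chr7:155297628-155297927 on the plus strand for INSIG1 and chr22:41832855-41833154 on the plus strand for SREBF2.
HMGCS1: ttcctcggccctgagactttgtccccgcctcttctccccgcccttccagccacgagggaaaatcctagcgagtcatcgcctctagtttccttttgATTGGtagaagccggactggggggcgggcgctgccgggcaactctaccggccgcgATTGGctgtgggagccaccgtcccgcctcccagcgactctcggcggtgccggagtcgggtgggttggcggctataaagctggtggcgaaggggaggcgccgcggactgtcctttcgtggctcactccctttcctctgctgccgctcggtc
EBP: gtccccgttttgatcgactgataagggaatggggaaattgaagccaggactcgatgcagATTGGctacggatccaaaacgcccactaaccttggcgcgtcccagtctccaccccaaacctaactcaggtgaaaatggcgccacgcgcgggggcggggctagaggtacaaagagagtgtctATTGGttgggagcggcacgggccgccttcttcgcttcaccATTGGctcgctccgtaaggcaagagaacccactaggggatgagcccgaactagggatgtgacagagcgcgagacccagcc
INSIG1: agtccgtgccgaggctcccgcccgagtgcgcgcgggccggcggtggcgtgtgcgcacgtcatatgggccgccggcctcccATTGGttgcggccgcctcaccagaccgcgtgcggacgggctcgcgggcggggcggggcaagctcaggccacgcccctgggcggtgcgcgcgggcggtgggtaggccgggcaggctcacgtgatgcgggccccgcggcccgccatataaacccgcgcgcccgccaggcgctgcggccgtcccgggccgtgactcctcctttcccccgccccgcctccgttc
SREBF2: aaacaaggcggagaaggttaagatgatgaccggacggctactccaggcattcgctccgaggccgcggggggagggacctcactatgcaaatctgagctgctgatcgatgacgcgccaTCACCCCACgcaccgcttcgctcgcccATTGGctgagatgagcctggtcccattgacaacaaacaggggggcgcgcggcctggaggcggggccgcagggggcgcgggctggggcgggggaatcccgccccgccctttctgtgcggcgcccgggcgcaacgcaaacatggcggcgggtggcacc

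Each motif was sought on both strands, and no motif's letters contain another's. TCACNCCAC was present in 1 of the 31 listed promoters of the members (3.23%) and in 1.13% of all 35116 promoters of the same length. In SREBF2 it reads TCACCCCAC and begins 133 bases before the start. CCAAT was present in 20 of the 31 (64.5%), against 34.6% of all promoters, and the GC box GGGCGG in 28 of 31 (90.3%), against 45%. The 31 promoters belong to 25 members, and overlapping windows of the same gene, as for SC5D and INSIG2, can count 1 site more than once. By member, 18 of 25 held CCAAT and 23 of 25 held GGGCGG. The promoters were not matched to the members in expression or base content, so no excess particular to this pathway can be read from these shares. HMGCS1 and EBP, which were lower under ING5 siRNA, and INSIG1, which was higher, all hold CCAAT, with 2, 3 and 1 matches in the printed windows. The other listed window of HMGCS1 had 0 matches. A match is a description of these letters and not a measured binding site. Only the pattern TCACNCCAC was sought for the sterol regulatory element, within windows of 300 bases. A promoter without a match may therefore still hold another form of the element.

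Levels per length were read within each library, from the deposited FPKM in the vector pair and the deposited RPKM in the siRNA pair. A gene was called measured where its mean normalised count in a pair was at least 20, and 25 of the 28 members were measured in each pair. The 25 ranged from 10.34 FPKM (INSIG2) to 712.8 FPKM (FDPS) in vector, with a median of 69.92 where the median of all listed genes was 5.91. In the library labelled JFK the range was 10.52 (INSIG2) to 725.71 FPKM (FDPS). In control siRNA they ranged from 2.96 RPKM (TM7SF2) to 233 RPKM (EBP), with a median of 31.1 against 4.81 for all listed genes, and in ING5 siRNA from 2.38 (TM7SF2) to 178 RPKM (FDPS). Most members were thus among the well-expressed genes of each library. All 25 measured members lay above the library median in the vector pair, and 24 did in each siRNA library. The 3 others, MYLIP, NPC1L1 and ABCA1, had 0.4, 0.07 and 0.04 FPKM in vector, below its median. The listed genes behind each median include genes that were not measured, so the count filter favours the 25 in this comparison.

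The order of levels differed between the pairs, which were quantified separately. In vector the 3 highest were FDPS, EBP and ACAT2, and in control siRNA EBP, FDPS and CYP51A1. The lanosterol synthase gene LSS stood 10th of 28 in vector and 9th in the library labelled JFK, but 21st in both siRNA libraries. INSIG1 stood 12th in vector, 13th in the library labelled JFK, 4th in control siRNA and 2nd in ING5 siRNA. The last 3 places were taken by MYLIP, NPC1L1 and ABCA1 in all 4 libraries.

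**Figure D1:**
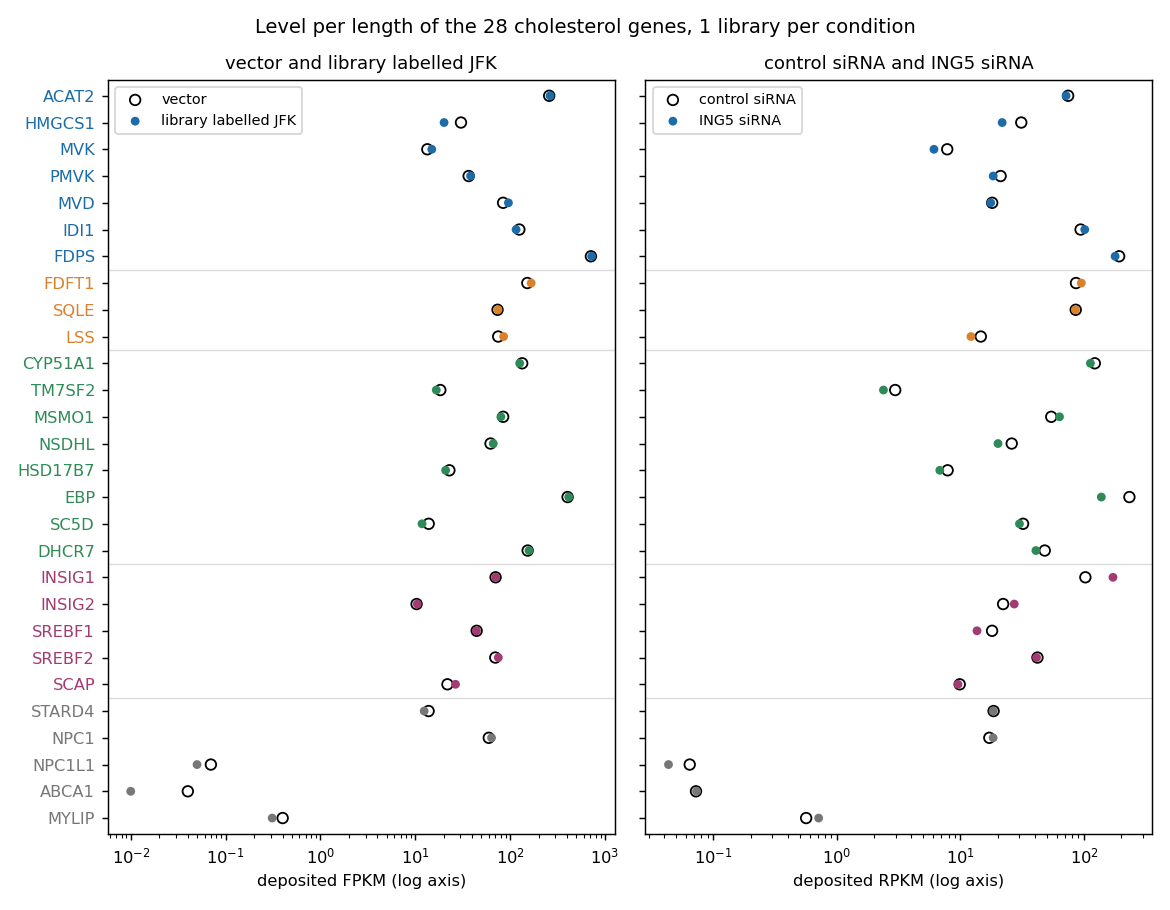
Deposited FPKM (left) and RPKM (right), on log axes, of the 28 genes coloured by role, with open circles for vector or control siRNA and filled circles for the other library of the pair; each circle is 1 library. FDPS reaches 712.8 FPKM in vector, and the open and filled circles of HMGCS1 stand apart in both panels.

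Against vector, the library labelled JFK showed no measured member 1.5-fold apart (0 of 25), where 3.57% of all 12107 measured genes were. The largest difference was in HMGCS1, which makes the precursor of mevalonate and was lower, and the next in SCAP, the SREBP escort, which was higher. The median log2 fold of the 25 was 0.07 against 0.00 for all measured genes (log2 fold is of normalised counts with 0.5 added). Of the 25, 17 lay above 0 (68.0%, against 50.5% of all genes) and 8 below. Counting intervals, exact 95% intervals for the ratio of both counts that cover counting error only, lay wholly above 0 for 10 of 25 (40.0%, against 14.3%) and wholly below 0 for 2 (8.0%, against 11.2%). The members have more reads than most genes, with a median normalised count of 1535.1 against 261.3, which narrows their intervals. Among genes of at least 500 normalised counts the interval was wholly above 0 for 10 of 19 members (52.6%) and for 29.9% of 3524 genes, and wholly below 0 for 2 members (10.5%) and 15.9% of genes. With total-count scaling the 10 became 6 (MVD, FDFT1, LSS, SREBF2, SCAP and NPC1), and the 2 below 0 became 4.

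Against control siRNA, the ING5 siRNA library showed 2 of 25 members at least 1.5-fold apart (8.0%, against 8.41% of all 11634 measured genes), a share near the background. INSIG1, the sterol-sensing brake on SREBP processing, was higher, and EBP, the sterol isomerase, was lower. The median was −0.10 against −0.01 for all genes. Of the 25, 6 lay above 0 (background 48.6%) and 19 below (76.0%, against 51.4%). The counting interval was wholly above 0 for 5 of 25 (background 18.3%) and wholly below 0 for 9 (36.0%, against 20.6%). Among genes of at least 500 normalised counts it was wholly below 0 for 8 of 17 members (47.1%) and for 30.1% of 4325 genes, and wholly above 0 for 5 members (29.4%) and 26.8% of genes. No member was 2-fold apart in either pair, where 0.57% and 1.46% of all genes were.

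**Figure D2:**
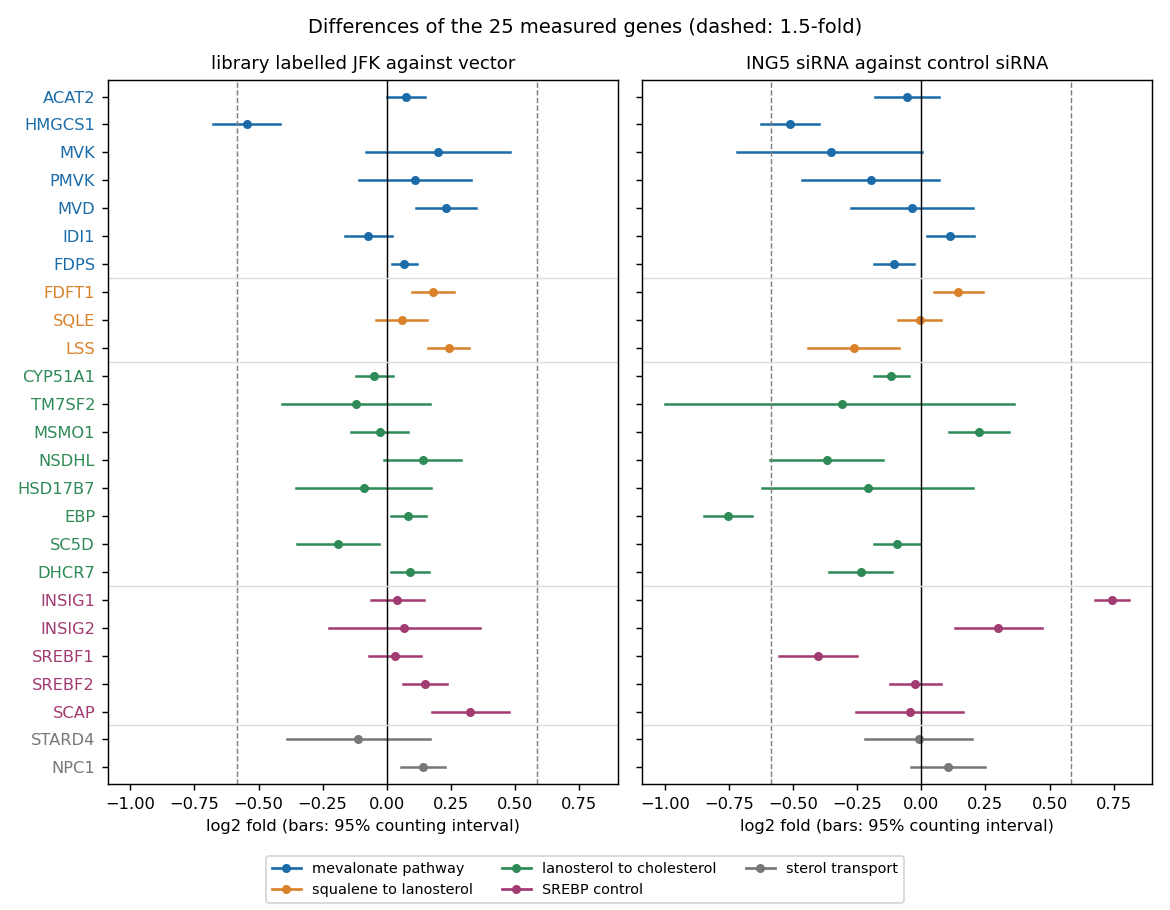
Log2 fold of the 25 measured genes in each pair (points) with the 95% counting interval (bars), coloured by role; dashed lines mark 1.5-fold. Only EBP (−0.75) and INSIG1 (0.74) lie past a dashed line, both under ING5 siRNA, and HMGCS1 is low in both panels (−0.55 and −0.51).

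The mevalonate pathway was represented by 7 genes. HMGCS1, the cytosolic HMG-CoA synthase (Entrez Gene 3157), had 1194 counts in vector, 804 in the library labelled JFK, 1557 in control siRNA and 1079 in ING5 siRNA. It was lower than its control in both pairs, at 68.5% (62.5 to 74.9) and 70.1% (64.8 to 75.8) of the control level, log2 folds of −0.55 (−0.68 to −0.42) and −0.51 (−0.63 to −0.40). In the vector pair it ranked 35th from the lowest among 3524 genes of at least 500 normalised counts, and in the siRNA pair 184th among 4325. Of the 11148 genes measured in both pairs, 40 lay as low as HMGCS1 or lower in both, HMGCS1 included. By deposited FPKM with 0.1 added the log2 fold in the library labelled JFK was −0.59, just past 1.5-fold.

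The other 6 mevalonate pathway genes lay closer to their controls. ACAT2, the cytosolic thiolase that starts the pathway, had 2894 counts in vector, 3000 in the library labelled JFK, 1072 in control siRNA and 1021 in ING5 siRNA (log2 folds 0.08, interval 0.00 to 0.15, and −0.05, −0.18 to 0.07). Its interval in the vector pair no longer lay wholly above 0 with median-of-ratios or total-count scaling. MVK, mevalonate kinase, had 201, 227, 150 and 116 counts in the same order (0.20, −0.08 to 0.48, and −0.35, −0.72 to 0.00). PMVK, the next kinase, had 340, 361, 254 and 219 (0.11, −0.11 to 0.33, and −0.20, −0.47 to 0.07). For both kinases the intervals held 0 in each pair, but with median-of-ratios scaling that of MVK lay wholly below 0 in the siRNA pair, which made 10 such members in place of 9. MVD, the decarboxylase that yields isopentenyl diphosphate, had 1096, 1264, 301 and 290 counts, higher in the library labelled JFK (0.23, 0.11 to 0.35) with an interval across 0 in the siRNA pair (−0.04, −0.28 to 0.20). IDI1, its isomerase, had 1935, 1811, 1855 and 1985 (−0.07, −0.16 to 0.02, and 0.11, 0.02 to 0.21). FDPS, which makes farnesyl diphosphate, had 6992.98, 7211.98, 2751 and 2527 (0.07, 0.02 to 0.12, and −0.11, −0.18 to −0.03). Apart from HMGCS1, the largest difference among these genes was that of MVK under ING5 siRNA (−0.353). Summed over the 7, normalised counts were 14530 (vector), 14803 (JFK label), 7896 (control siRNA) and 7278 (ING5 siRNA).

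The 3 genes from farnesyl diphosphate to lanosterol lay above 0 in the library labelled JFK (50.5% of all genes), and 2 of the 3 had intervals wholly above 0 (14.3% of all genes, and 29.9% of those of at least 500 normalised counts). FDFT1, squalene synthase, had 2311 counts in vector, 2572 in the library labelled JFK, 1675 in control siRNA and 1831 in ING5 siRNA. It was the 1 member with an interval wholly above 0 in both pairs (0.18, 0.10 to 0.26, and 0.14, 0.05 to 0.24), as for 2.84% of all genes measured in both. SQLE, squalene epoxidase, had 1592, 1630, 2356 and 2319 counts, with intervals across 0 in both pairs (0.06, −0.04 to 0.16, and −0.01, −0.09 to 0.08). LSS, lanosterol synthase, had 2291, 2663, 590 and 486 counts and differed in direction: higher in the library labelled JFK (0.24, 0.16 to 0.32) and lower under ING5 siRNA (−0.26, −0.44 to −0.09). These neighbouring steps thus did not move as a block under ING5 siRNA.

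Of the 8 genes that turn lanosterol into cholesterol, 7 lay below 0 under ING5 siRNA (51.4% of all genes), with a median of −0.22. Intervals lay wholly below 0 for 5 (20.6% of all genes, and 30.1% of those of at least 500 normalised counts). EBP, the isomerase that shifts the sterol ring double bond (Entrez Gene 10682), had 2552 counts in control siRNA and 1497 in ING5 siRNA, 59.3% of the control level (55.6 to 63.3; log2 fold −0.75, −0.85 to −0.66). It ranked 42nd from the lowest among 4325 genes of at least 500 normalised counts. In the vector pair EBP had 3413 and 3558 counts (0.08, 0.02 to 0.15), so its low value was seen in the siRNA pair and not in the vector pair. EBP is also the member with the highest level per length in control siRNA, at 233 RPKM, against 138 RPKM in ING5 siRNA.

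NSDHL, a decarboxylating sterol dehydrogenase, had 705 counts in vector, 764 in the library labelled JFK, 394 in control siRNA and 302 in ING5 siRNA (0.14, −0.01 to 0.29, and −0.37, −0.59 to −0.15). DHCR7, the reductase that makes cholesterol from 7-dehydrocholesterol, had 2945, 3084, 1179 and 990 (0.09, 0.02 to 0.16, and −0.24, −0.36 to −0.11). CYP51A1, the lanosterol demethylase, had 3086.11, 2935.5, 3607 and 3289 (−0.05, −0.12 to 0.03, and −0.12, −0.19 to −0.05). These 3 were lower under ING5 siRNA by less than 1.5-fold. SC5D, the desaturase before DHCR7, had 700.74, 604.05, 2073 and 1919 and was, with HMGCS1, 1 of the 2 members with intervals wholly below 0 in both pairs (−0.19, −0.35 to −0.03, and −0.10, −0.19 to −0.01), as for 3.94% of all genes. With total-count or upper-quartile scaling SC5D no longer had such an interval in the siRNA pair.

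MSMO1, the methyl sterol monooxygenase, was the exception, with 1119 counts in control siRNA and 1292 in ING5 siRNA (0.22, 0.11 to 0.34) and 1343.59 and 1296.24 in the vector pair (−0.03, −0.14 to 0.08). HSD17B7, a sterol ketoreductase, had 250.63, 231.85, 111 and 95 counts in the order used above. TM7SF2, a sterol reductase, had 212, 192, 44 and 35. Both had intervals across 0 in each pair, and at these counts a difference such as that of NSDHL under ING5 siRNA was not detectable for TM7SF2, whose estimate was −0.31 with an upper bound of 0.36. Over all 18 synthesis enzymes, 15 lay below 0 under ING5 siRNA (51.4% of all genes), at a median of −0.16. Intervals lay wholly below 0 for 8 (20.6% of all genes, and 30.1% of those of at least 500 normalised counts) and wholly above it for 3 (18.3%), IDI1, FDFT1 and MSMO1. With total-count or upper-quartile scaling 14 lay below 0. Summed normalised counts of the 18 were 23510 in control siRNA and 21412 in ING5 siRNA, and in the vector pair 33223 (vector) and 34499 (JFK label).

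The SREBP control genes gave the highest value of any member. INSIG1 (Entrez Gene 3638), itself a target of SREBP and the protein that retains SCAP, had 2849 counts in control siRNA and 4716 in ING5 siRNA, a fold of 1.67 (log2 fold 0.74, 0.68 to 0.81). It ranked 15th from the highest among 4325 genes of at least 500 normalised counts. In the vector pair INSIG1 had 1526 and 1544 counts (0.04, −0.06 to 0.14). INSIG2, its relative, had 528 counts in control siRNA and 643 in ING5 siRNA (0.30, 0.13 to 0.47), and 193 and 199 in the vector pair (0.07, −0.22 to 0.36). Both INSIG genes were thus higher under ING5 siRNA, INSIG1 past 1.5-fold.

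SREBF1, the gene of SREBP1, had 831 counts in control siRNA and 621 in ING5 siRNA, 75.6% of the control level (−0.40, −0.56 to −0.25), and 1598 and 1607 in the vector pair (0.03, −0.07 to 0.13). SREBF2, the gene of SREBP2, had 1670 and 1625 counts in the siRNA pair (−0.02, −0.12 to 0.08) and 2190 and 2388 in the vector pair (0.15, 0.06 to 0.23). SCAP had 386 and 370 counts in the siRNA pair (−0.04, −0.25 to 0.16) and 674 and 831 in the vector pair, 125% of vector (113 to 139; 0.33, 0.18 to 0.48). The genes apart from control within this group therefore differed between the pairs: INSIG1, INSIG2 and SREBF1 under ING5 siRNA, and SCAP and SREBF2 in the library labelled JFK. Whether the pairs differ for a given gene was not tested. In the library labelled JFK all 5 lay above 0 (50.5% of all genes), or 4 of 5 with total-count scaling or by FPKM, where SREBF1 was at −0.01.

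Among the sterol transport genes, NPC1, which exports cholesterol from lysosomes, had 2088 counts in vector, 2263 in the library labelled JFK, 760 in control siRNA and 808 in ING5 siRNA (0.14, 0.05 to 0.23, and 0.10, −0.04 to 0.25). STARD4, a cytosolic sterol carrier, had 225.25, 205, 386 and 379 counts (−0.11, −0.39 to 0.17, and −0.01, −0.22 to 0.20). The other 3 were too low to compare. MYLIP, the ubiquitin ligase IDOL that is an LXR target, had 9, 7, 16 and 20 counts. ABCA1, the cholesterol efflux pump and another LXR target, had 3, 1, 7 and 7. NPC1L1, the intestinal cholesterol importer, had 2.68, 1.81, 3 and 2. ABCA1 and NPC1L1 thus lay near the limit of 3 counts, equal to 0.415 to 0.418 counts per 1000000 in the vector pair and 0.326 to 0.332 among the siRNA libraries.

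**Figure D3:**
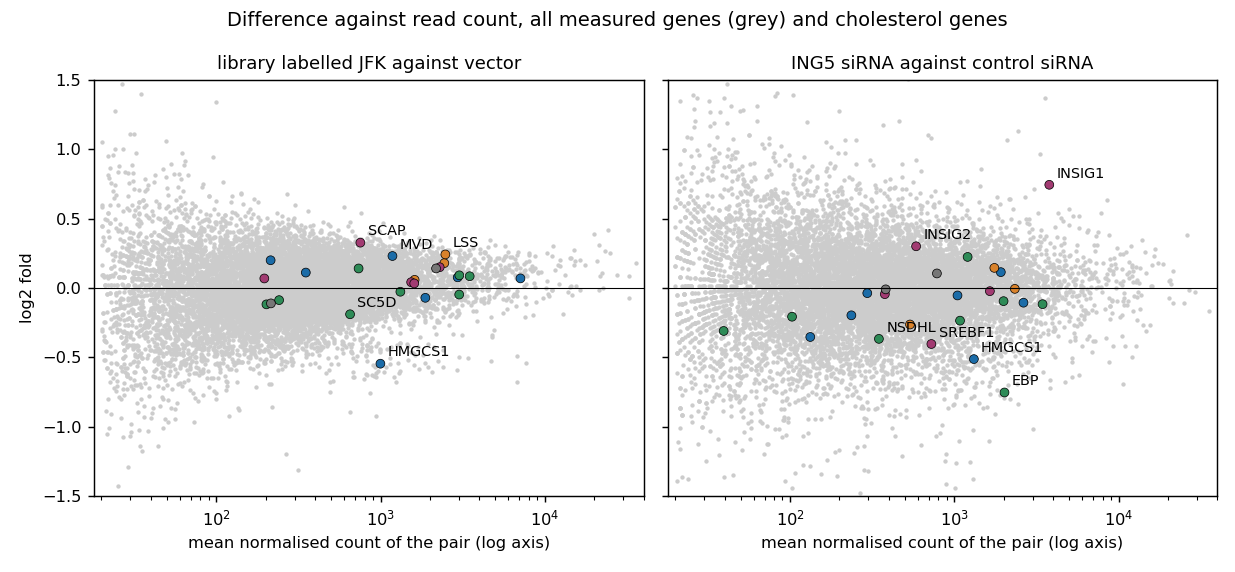
Log2 fold against mean normalised count (log axis) in each pair, for genes measured in both pairs with a symbol (grey) and the 25 cholesterol genes (coloured by role as in the plot of log2 folds); 3 genes in the left panel and 20 in the right lie outside the axes. HMGCS1 (−0.55) stands at the lower edge of genes of like count on the left, and INSIG1 (0.74) and EBP (−0.75) stand at the edges on the right.

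The pairs have separate controls, and their values were set side by side. Of the 25 members, 10 had the same sign in both pairs (4 above and 6 below), where 49.7% of all genes did. Another 13 lay above 0 in the library labelled JFK and below 0 under ING5 siRNA, and 2 the other way. Intervals lay wholly on opposite sides of 0 for 4 members, FDPS, LSS, EBP and DHCR7. Each of the 4 was above 0 in the library labelled JFK and below 0 under ING5 siRNA. With total-count scaling LSS alone of the 4 kept an interval wholly above 0 in the vector pair. The shares of all genes opposed in this direction, by sign or by interval, were not computed. No excess among the members can therefore be read from these counts, and their many reads narrow their intervals. Pearson's r between the pairs was 0.16 over the 25 members and 0.06 over all 11148 genes, as a description across genes that share libraries and are not independent. Without HMGCS1 it was −0.07 over the members, so the slight positive value rests on that gene.

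**Figure D4:**
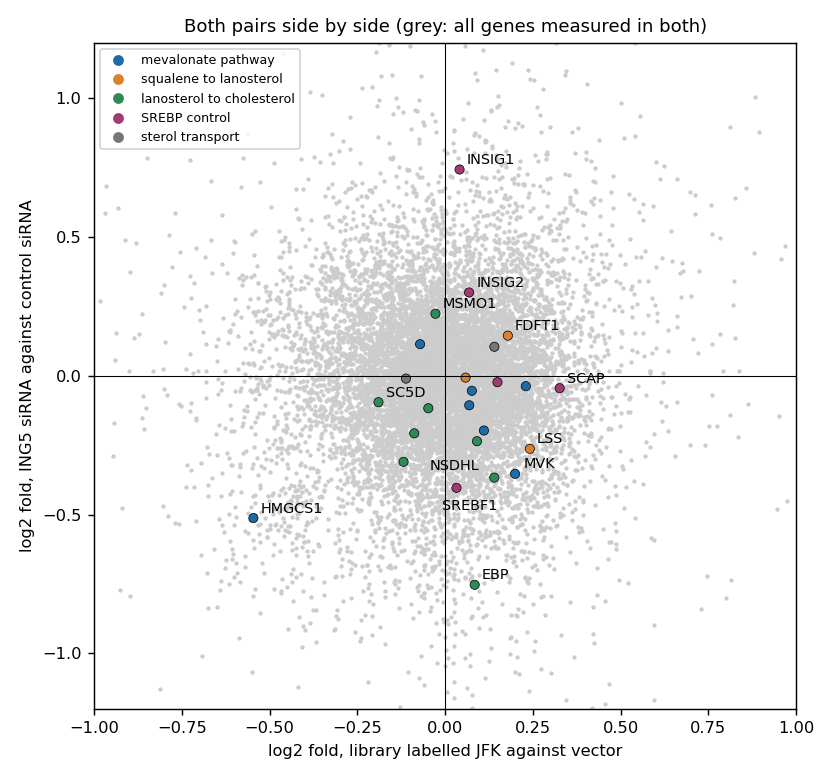
Log2 fold under ING5 siRNA (vertical) against log2 fold in the library labelled JFK (horizontal) for the 25 cholesterol genes, coloured by role, over all genes measured in both pairs with a symbol (grey, 84 of 11128 lie outside the axes). HMGCS1 sits at the lower left (−0.55 and −0.51), and INSIG1 and EBP sit near 0 on the horizontal axis at 0.74 and −0.75 on the vertical one.

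Other genes of the pathway were read from 8 lists with 65 genes, of which 57 (vector pair) and 58 (siRNA pair) were measured. In the library labelled JFK, 1 of the 57 was at least 1.5-fold lower and 0 were higher (background 2.07% and 1.5%). Under ING5 siRNA 2 of the 58 were lower and 2 higher (4.4% and 4.01%).

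The isoprenoid branch draws on the mevalonate pathway for protein prenylation, dolichol and ubiquinone. In the library labelled JFK 10 of its 10 genes lay below 0 under each of the scalings (49.5% of all genes). Their median was −0.19, against 0.00 for all genes. Intervals lay wholly below 0 for 2 (11.2% of all genes, and 15.9% of those of at least 500 normalised counts). The lowest was FNTB, a farnesyltransferase subunit, with 111.06 counts in vector against 68.81 (−0.66, −1.12 to −0.22), and the highest was COQ2 at −0.11. FNTB had counts that were not whole. In the siRNA pair 6 of 9 lay below 0 (51.4% of all genes); the lowest was RABGGTB, of the Rab prenylation enzyme, with 1305 counts in control siRNA and 748 in ING5 siRNA (−0.79), and the highest PDSS2, of ubiquinone synthesis, at 0.29.

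Of the lipoprotein uptake genes, all 5 lay above 0 under ING5 siRNA (48.6% of all genes). Intervals lay wholly above 0 for 2 (18.3% of all genes, and 26.8% of those of at least 500 normalised counts). VLDLR, the receptor for very low density lipoprotein, had 142 counts in control siRNA and 227 in ING5 siRNA (0.69, interval from 0.38), and SNX17 was lowest at 0.04. In the library labelled JFK LRP1, a scavenging receptor of the same family, had 736 counts in vector and 952 (0.40, 0.26 to 0.54), and VLDLR was lowest at −0.05. In that library 3 of 5 had intervals wholly above 0 (14.3% of all genes, and 29.9% of those of at least 500 normalised counts). No member of this list moved past 1.5-fold except VLDLR under ING5 siRNA. Of all genes 3.57% (vector pair) and 8.41% (siRNA pair) were at least 1.5-fold apart.

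Targets of SREBP1 in fatty acid synthesis were set beside the sterol enzymes because both sets answer to SREBPs. Under ING5 siRNA 7 of 10 lay above 0 (48.6% of all genes). Intervals lay wholly above 0 for 6 (18.3% of all genes, and 26.8% of those of at least 500 normalised counts) and wholly below it for 1 (20.6%). Their median was 0.12, while the 18 sterol enzymes had a median of −0.16; the difference between the lists was not tested. FASN, fatty acid synthase, was highest, with 3505 counts in control siRNA and 5027 in ING5 siRNA (0.54, interval from 0.47), and SCD, the stearoyl-CoA desaturase, had 22617 and 29187 (0.38). FADS2, a polyunsaturated fatty acid desaturase, was lowest, with 260 and 180 (−0.51). Thus FASN and SCD were higher in the library in which SREBF1 itself was lower. In the library labelled JFK 5 of 10 lay on each side of 0, from ACACA, acetyl-CoA carboxylase, at −0.20 to MID1IP1, its activator, at 0.18.

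LBR, a sterol reductase of the inner nuclear membrane, had 852 counts in control siRNA and 977 in ING5 siRNA (0.21) and was at −0.15 in the vector pair. It was thus higher under ING5 siRNA, where most of the late enzymes above were lower. Of 10 genes of SREBP cleavage and sterol-dependent degradation none was 1.5-fold apart in either pair. Of all genes 3.57% (vector pair) and 8.41% (siRNA pair) were, so 0 of 10 does not set this list apart. In the library labelled JFK 1 had an interval wholly above 0 (14.3% of all genes) and 2 wholly below it (11.2%). Under ING5 siRNA 3 had intervals wholly below 0 (20.6% of all genes, and 30.1% of those of at least 500 normalised counts). The lowest in the library labelled JFK was ERLIN2, of a sterol-responsive ligase complex, at −0.26. Under ING5 siRNA they ran from the ligase gene RNF139 at −0.45 to ERLIN1 at 0.10.

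Sterol carriers of the transport list lay above 0 for 9 of 12 under ING5 siRNA (48.6% of all genes). Intervals lay wholly above 0 for 5 (18.3% of all genes, and 26.8% of those of at least 500 normalised counts). They lay wholly below 0 for 3, NPC2, GRAMD1C and TMEM97 (20.6% and 30.1%). GRAMD1B, which moves cholesterol from the plasma membrane to the endoplasmic reticulum, had 428 counts in control siRNA and 582 in ING5 siRNA (0.46, interval from 0.28), and its relative GRAMD1C was lowest, with 71 and 44 (−0.67). In the library labelled JFK the list ran from OSBPL9 at −0.18 to STARD3 at 0.28. The 3 measured genes of esterification and hydrolysis ran from SOAT1, the cholesterol acyltransferase, at −0.16 to NCEH1 at −0.06 in the library labelled JFK and from SOAT1 at −0.04 to NCEH1 at 0.17 under ING5 siRNA. Of the LXR genes and targets, RXRA was highest in the library labelled JFK (395 counts in vector and 471, 0.28) and SMPDL3A lowest (−0.06). Under ING5 siRNA ABCG1, a sterol efflux transporter, was highest, with 29 and 46 counts and an interval that held 0 (0.67, from −0.02), and SMPDL3A was lowest at −0.17.

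Counting limits touch some members. In the vector pair 7 of the 28 had expected counts that were not whole in at least 1 library. These were FDPS, CYP51A1, MSMO1, HSD17B7, SC5D, STARD4 and NPC1L1. Such counts arise when reads are divided among similar or overlapping genes, so the values of these 7 are uncertain. By library, 68.6% (vector) and 69% (JFK label) of gene counts were whole. Counts that were not whole were thus common and do not set the members apart. By exon overlap in the GENCODE annotation TM7SF2 shares sequence with VPS51 on its own strand and CYP51A1 with 2 further genes there. ACAT2, MVK, SREBF1, NPC1 and others share sequence with genes on the opposite strand, and strand use in counting was not given in the sources used here. EBP and INSIG1 overlap no other annotated exon, and HMGCS1 overlaps 1 gene without a symbol of its own on the opposite strand. For 0 of the 28 did count and FPKM or RPKM disagree.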

How the data were processed

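The submitters' processing notes name the tools STAR, fastp, FastQC and DESeq2 and the builds hg19 and GRCh37; the counter and each tool's role were not given in the sources used here. Gene tables of the vector pair hold deposited expected counts and deposited FPKM, and those of the siRNA pair deposited counts and deposited RPKM, per the file headers. Entrez identifiers were matched to symbols through a RefSeq table of GRCh38.p14 (16900 and 16771 matched, 110 and 89 did not). In the siRNA pair 2 identifiers listed more than once were left out, as was 1 gene with a blank count in the vector pair.

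Counts were scaled with TMM factors (trims 0.3 and 0.05) (Python 3.11.15, scipy 1.17.1, pandas 2.3.3, numpy 2.4.6) and set to the pair's mean library size, and 0.5 was added before the log2 ratio. Expected counts were rounded to whole numbers for the exact 95% Clopper-Pearson interval. It covers counting error only, because 1 library per condition gives no spread between libraries. Without molecular identifiers reads may be copies of 1 molecule, so the interval may be too narrow even for counting error. Genes averaging at least 20 normalised counts in a pair were called measured. The scripts were tested on simulated data. The members, lists and thresholds were chosen with earlier results of these data known. Named genes were all members, FBXO42, ING5, and the highest and lowest measured gene of each further list; SCD was named beyond that rule after its values were seen. The cutoff of 500 normalised counts and the promoter motifs were also chosen then. Count and RPKM were said to disagree beyond 0.001 counts (siRNA pair) and count and FPKM beyond 10% for genes of at least 20 counts and 500 bases (vector pair). Alternatives were other scalings, filters, an added count of 5, FPKM or RPKM, and leaving out genes whose count and FPKM or RPKM disagree. Some genes of the other pathway lists are not reported here.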

Additional observations from a re-analysis of the deposited data

How the results depend on the processing

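Across the alternative settings 399 single-gene values stayed within their counting intervals, and 72 of 76 summary values stayed near those reported. Settings that alter only the filter on low counts cannot move a gene's log2 fold. Part of the 399 was therefore fixed in advance and is no check of these values. With total-count scaling the members with intervals wholly above 0 in the library labelled JFK numbered 6 in place of 10 and those wholly below 0 numbered 4 in place of 2; the median log2 fold of all genes was then −0.03. Members at least 1.5-fold lower there numbered 1 in place of 0 by deposited FPKM with 0.1 added (HMGCS1), and 1 with no filter (ABCA1, with 3 and 1 counts). The median of the members ran from 0.03 to 0.07 in the library labelled JFK and from −0.11 to −0.07 under ING5 siRNA, where 1 member was at least 1.5-fold higher and 1 lower under all 8 alternatives. Intervals for FPKM and RPKM were not computed, since these carry no counts. No paired analysis was possible because each condition has 1 library and the labels give no replicate numbers; leaving out a replicate was not possible either. Depth limits MYLIP, ABCA1 and NPC1L1.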
